A study of Homo sapiens with 6 samples.

Results

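The 10 genes described here belong to the integrated stress response: ATF4, ATF5, DDIT3, DDIT4, TRIB3, ASNS, CHAC1, SESN2, PPP1R15A and VLDLR. They were chosen by name and not by a rule on their values, though earlier results of these data were known. Each was found once among the 39012 rows of a deposited expression table made by RNA-seq from Jurkat cells, an established line of human T cell leukaemia. The table holds 6 libraries, 3 from cells with an empty vector (EV) and 3 from cells that stably overexpress SCML4, a Polycomb group protein related to Scm. All 6 libraries come from cells given PMA at 100 ng/ml together with ionomycin at 1 µM for 6 h. The labels name no unstimulated library and no stressor beyond these agents. The labels do not say whether the replicates were separate cultures or whether each line is 1 clone, and p-values therefore measure the spread between these libraries only, which may be technical. In bulk RNA, fewer cells that express a gene and less transcript per cell cannot be told apart.

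The integrated stress response begins with kinases that phosphorylate the translation factor eIF2 when cells meet amino acid shortage, unfolded protein, double-stranded RNA or lack of haem. General translation then falls, while a few transcripts whose leaders carry upstream open reading frames, those of ATF4, ATF5, DDIT3 and PPP1R15A among them, are translated more. The ATF4 protein, a bZIP transcription factor, binds composite sites next to partners of the C/EBP family and induces genes of amino acid supply, redox balance and cell death. Because much of this control acts on translation, transcript levels do not measure ATF4 protein or eIF2 phosphorylation.

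The 250 bases before each annotated start were searched for the core of the composite C/EBP and ATF site, TGATGNAA, and for the cyclic AMP response element TGACGTCA, to which bZIP factors bind, on both strands. The sequences are those of RefSeq on GRCh38.p14, a different build from the hg19 named for the libraries, and all 10 genes had a window. The composite core was found in ASNS and CHAC1 and the response element in PPP1R15A, while no member had an exact match to the stress element. These windows are printed because they hold the matches, which are in capitals. ASNS is shown from chr7:97872409-97872658 on the minus strand, CHAC1 from chr15:40953221-40953470 and PPP1R15A from chr19:48872171-48872420, both on the plus strand.
ASNS: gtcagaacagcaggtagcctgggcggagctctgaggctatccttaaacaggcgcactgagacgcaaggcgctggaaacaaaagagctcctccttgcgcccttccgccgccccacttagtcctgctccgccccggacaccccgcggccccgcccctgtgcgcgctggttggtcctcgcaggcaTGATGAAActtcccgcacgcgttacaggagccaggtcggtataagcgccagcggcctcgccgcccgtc
CHAC1: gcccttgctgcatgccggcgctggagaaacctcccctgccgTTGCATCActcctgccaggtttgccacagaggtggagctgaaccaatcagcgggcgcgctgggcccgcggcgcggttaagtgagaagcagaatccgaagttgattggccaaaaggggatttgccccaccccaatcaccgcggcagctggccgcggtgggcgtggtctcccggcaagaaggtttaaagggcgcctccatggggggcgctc
PPP1R15A: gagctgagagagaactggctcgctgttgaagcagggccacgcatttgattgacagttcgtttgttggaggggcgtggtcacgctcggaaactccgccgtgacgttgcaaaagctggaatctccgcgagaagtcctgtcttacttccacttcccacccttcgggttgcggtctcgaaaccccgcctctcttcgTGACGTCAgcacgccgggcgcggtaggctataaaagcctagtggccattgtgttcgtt
The ASNS match, TGATGAAA, lies 68 to 61 bases before the start. The CHAC1 match reads TTGCATCA on the printed strand, which is the core on the other strand, 209 to 202 bases before the start. In PPP1R15A, the response element lies 58 to 51 bases before the start. The DDIT3 windows, not printed, hold ccaatgccggcgtgccact, which departs from the stress element only at its last base and was therefore not counted. Of 27305 genes with windows of this length, 3.89% had the core, 2.03% the response element and 0.0916% the stress element in at least 1 window. A match describes letters only, and a window without one says nothing about more distant sites.

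One library, EV replicate 1, stood apart from the other 5 on the first principal component of the 11407 genes averaging 50 reads or more (score -25.5, against 2.22 to 7.39), and the differences of the members and the counts of the lists are therefore given with and without it. None of the 10 genes differed between SCML4 and EV cells beyond the spread between libraries. Each level is a CPM, the number of reads in 1000000 of that library, worked out from the steps of the deposited FPKM values. The test was limma-trend on log2(CPM + 0.5), SCML4 minus EV, over the 14160 genes whose mean reached 10 reads. All 10 members passed that filter and 0 were called at an adjusted p under 0.05, where limma-trend called 0.00706% of all genes tested, SCML4 alone. At an unadjusted p under 0.05 there were 0 of 10, against 5.2% of all genes. In none of the 10 did the values of the groups stand apart, against 11.6% of all genes (6.29% with SCML4 higher and 5.36% with SCML4 lower). The sign was positive in 7 members and negative in 3, and their median was 0.10 in log2, beside 0.01 for all genes, of which 52.3% were positive. Without EV replicate 1, 5 were positive and 5 negative and the median was -0.01, where 51.8% of all genes were positive. In that fit 0 of 10 had an unadjusted p under 0.05, against 6.69% of all genes. The same count was 0 of 10 with library weights in limma-trend, against 9.84%, and 0 of 10 with library weights in limma-voom, against 8.49%. By adjusted p each of these fits called 0 members, against 0.0989% of all genes without EV replicate 1, 0.141% with weights in limma-trend and 0.0989% with weights in limma-voom.

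**Figure D1:**
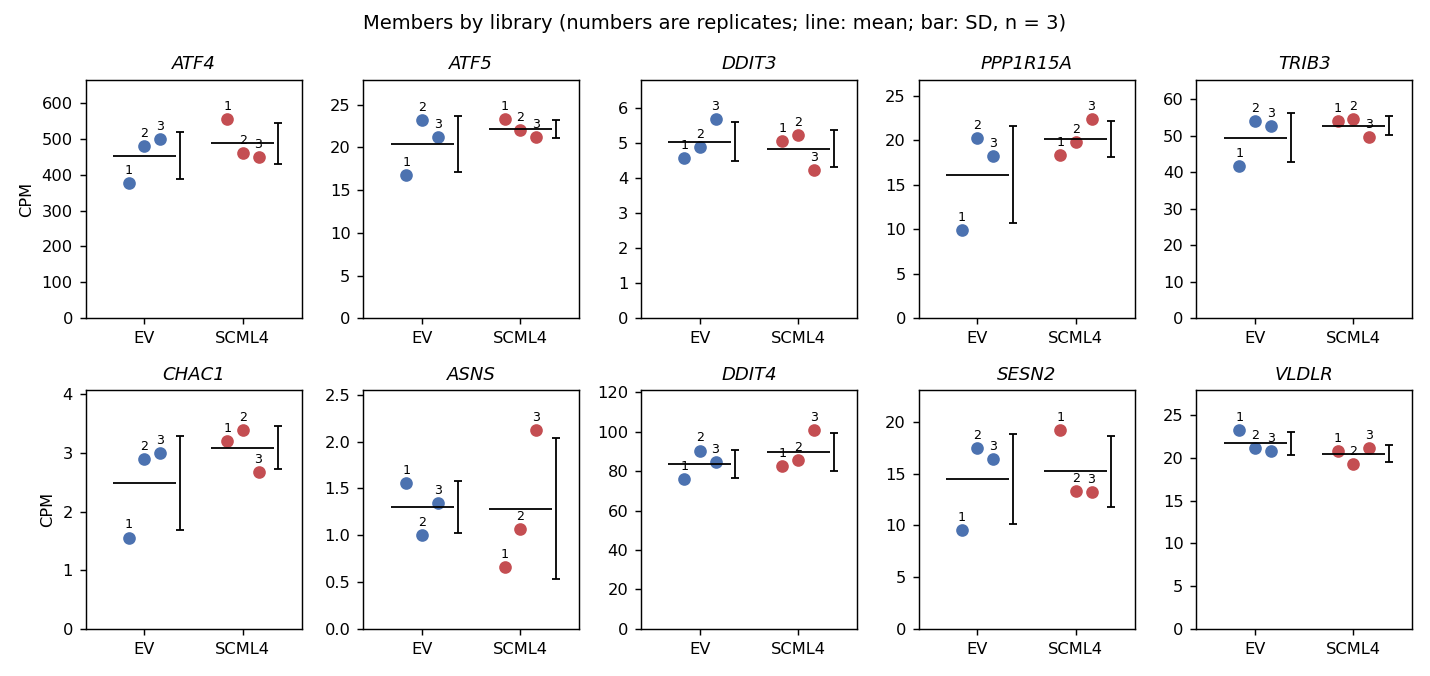
Each panel plots 1 gene, with its CPM in every library on an axis that starts at 0, EV in blue and SCML4 in red; numbers are replicates, lines are means and bars are SD (n = 3). The groups overlap in all 10 panels, and EV replicate 1 is the lowest of the 6 libraries in 7 of them.

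Of the 3 transcription factors, ATF4 had by far the most reads, 3636 to 5019 per library. In the EV libraries it stood at 377, 481 and 499 CPM and in the SCML4 libraries at 554, 459 and 449.8 CPM. The lowest value was that of EV replicate 1 and the highest that of SCML4 replicate 1, and the other 4 libraries lay between 449.8 and 499 CPM. The means were 453 ± 65.6 in EV and 487 ± 57.6 in SCML4 (SD, n = 3 each). The difference was 0.11 in log2 with a standard error of 0.11 and a 95% interval of -0.12 to 0.35, or 0.918-fold to 1.27-fold (limma-trend, adjusted p = 0.912). Without EV replicate 1 the difference was -0.01, with an interval of -0.18 to 0.15. ATF4 reads can be shared with the processed pseudogenes ATF4P3 and ATF4P4, near copies of its transcript, which together held reads equal to 3.73% to 6.24% of those of ATF4.

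ATF5, a bZIP factor of the same family whose translation is controlled in the same way, was measured at 16.8, 23.2 and 21.2 CPM in EV and at 23.3, 22.1 and 21.2 CPM in SCML4. Apart from EV replicate 1, all libraries lay within 21.2 to 23.3 CPM. The difference was 0.13 in log2 (SE 0.14, 95% interval -0.17 to 0.43, adjusted p = 0.916 in limma-trend), and without EV replicate 1 it was 0.00. DDIT3 encodes CHOP, the C/EBP-related factor that promotes cell death when stress persists. It had 38 to 55 reads per library and stood at 4.57, 4.91 and 5.68 CPM in EV and at 5.07, 5.22 and 4.24 CPM in SCML4. Here EV replicate 3 was the highest and SCML4 replicate 3 the lowest library. The difference of -0.05 (SE 0.20) had a 95% interval of -0.48 to 0.38 (limma-trend, adjusted p = 0.976), and it was -0.12 without EV replicate 1.

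The feedback genes of the pathway included the member with the largest difference. PPP1R15A encodes GADD34, which brings protein phosphatase 1 to eIF2 and restores translation. It was measured at 9.97, 20.3 and 18.2 CPM in EV and at 18.3, 19.8 and 22.3 CPM in SCML4. EV replicate 1 was low, and the other 5 libraries, of both groups, lay between 18.2 and 22.3 CPM. The difference was 0.37 in log2 with a standard error of 0.21 and a 95% interval of -0.09 to 0.83 (limma-trend, adjusted p = 0.867). Without EV replicate 1 it was 0.06, with an interval of -0.22 to 0.35, so that the difference rested on that library. In EV replicate 1 the gene had 96 reads, and in the other 5 libraries 166 to 205.

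TRIB3, a pseudokinase that is induced by ATF4 and CHOP and restrains both, stood at 41.8, 54.0 and 52.7 CPM in EV and at 54.2, 54.5 and 49.7 CPM in SCML4. Again EV replicate 1 was below the remaining libraries, which spanned 49.7 to 54.5 CPM. The difference of 0.10 in log2 (SE 0.11) had a 95% interval of -0.14 to 0.34 (limma-trend, adjusted p = 0.921), and it turned to -0.016 without EV replicate 1. CHAC1, an enzyme that degrades glutathione and is a sensitive target of ATF4, had only 15 to 35 reads per library. Its levels were 1.56, 2.90 and 3.00 CPM in EV and 3.20, 3.39 and 2.68 CPM in SCML4. The mean of SCML4 was 3.09 ± 0.366 and that of EV 2.48 ± 0.804 CPM (SD, n = 3 each), and the groups overlapped. A difference of 0.30 in log2 (SE 0.27, adjusted p = 0.904 in limma-trend) had a 95% interval of -0.28 to 0.88. It was 0.05 without EV replicate 1, in which the gene had its fewest reads, 15 against 24 to 35 elsewhere.

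DDIT4 and SESN2, which restrain the growth kinase complex mTORC1, were detected in every library. DDIT4, known as REDD1, acts through the TSC complex and responds to hypoxia and glucocorticoids as well as to ATF4. It stood at 76.2, 90.4 and 84.7 CPM in EV and at 82.5, 85.6 and 100.7 CPM in SCML4, with SCML4 replicate 3 the highest library. The difference of 0.09 in log2 (SE 0.10) had the narrowest 95% interval of the 10 genes, -0.12 to 0.31, which corresponds to 0.921-fold to 1.24-fold. It was 0.03 without EV replicate 1. SESN2, a leucine-binding inhibitor of mTORC1, varied more. Its levels were 9.55, 17.5 and 16.4 CPM in EV and 19.2, 13.4 and 13.2 CPM in SCML4. EV replicate 1 was the lowest library and SCML4 replicate 1 the highest, and EV replicates 2 and 3 lay above SCML4 replicates 2 and 3. Its difference was 0.09 in log2 (SE 0.22, 95% interval -0.37 to 0.56, adjusted p = 0.961 in limma-trend). It was -0.17 without EV replicate 1 and -0.08 without SCML4 replicate 1.

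ASNS, the enzyme that makes asparagine and a classical ATF4 target, had the fewest reads of the members. Only 15, 9 and 13 reads were counted in EV and 6, 11 and 19 in SCML4, or 1.56, 1.00 and 1.34 CPM against 0.662, 1.06 and 2.12 CPM. The 3 SCML4 libraries spanned the whole range of the gene, from the lowest value to the highest, and the EV values lay inside it. Pooled over each group there were 37 and 36 reads, a ratio of 0.970 whose exact 95% limits from counting alone were 0.596 and 1.58. The difference of -0.09 in log2 (SE 0.35, 95% interval -0.84 to 0.66, adjusted p = 0.977 in limma-trend) was the least precise of the set, and it turned to 0.016 without EV replicate 1. VLDLR, the lipoprotein receptor that ATF4 induces under stress of the endoplasmic reticulum, was the most even member. It stood at 23.3, 21.2 and 20.8 CPM in EV and at 20.9, 19.3 and 21.2 CPM in SCML4. The highest of these 6 values was 1.2 times the lowest, with EV replicate 1 at the top. Its difference was -0.08 in log2 (SE 0.12, 95% interval -0.34 to 0.18), and -0.04 without EV replicate 1.

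**Figure D2:**
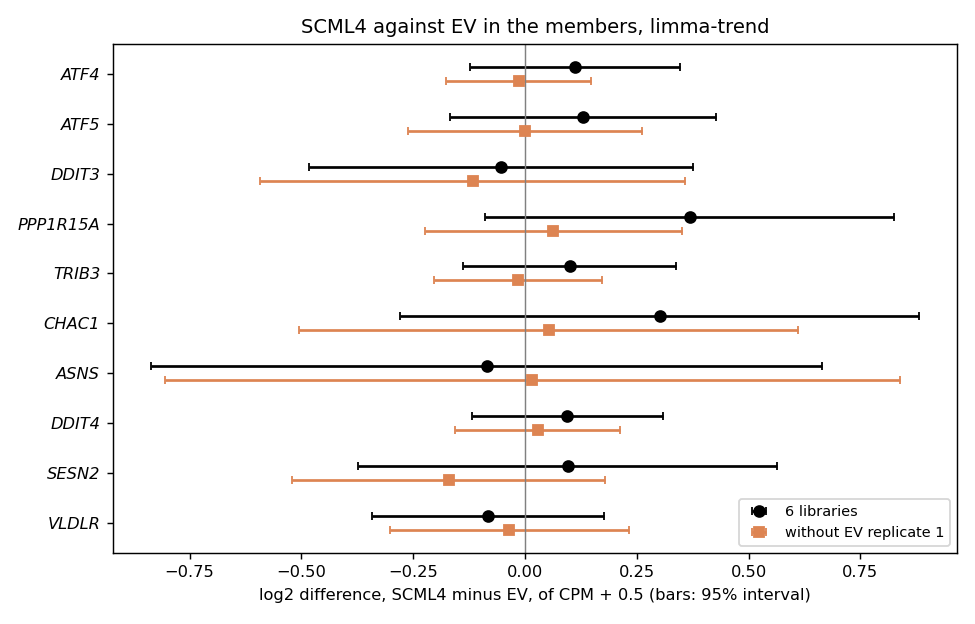
Points give the log2 difference, SCML4 minus EV, of CPM + 0.5 for each gene by limma-trend, and bars its 95% interval, for all 6 libraries (black circles) and without EV replicate 1 (orange squares). Every interval includes 0 in both fits; PPP1R15A moves from 0.37 to 0.06 and SESN2 from 0.09 to -0.17.

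Across the 10 genes adjusted p in limma-trend ran from 0.867 to 0.977. Permuting the 6 labels exactly, two-sided, gave p between 0.4 and 0.9, where 0.1 is the smallest value the design allows. The intervals differ in what they leave possible. For ATF4, ATF5, DDIT3, DDIT4, TRIB3 and VLDLR the upper bounds of the 95% interval were at most 1.34-fold. For CHAC1, PPP1R15A, ASNS and SESN2 they were 1.84-fold, 1.77-fold, 1.58-fold and 1.48-fold. The lower bounds reached furthest in ASNS, to 0.560-fold, followed by DDIT3 at 0.715-fold, SESN2 at 0.772-fold and VLDLR at 0.789-fold. In the other 6 members they lay between 0.824-fold and 0.939-fold.

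EV replicate 1 was low in most members. It lay below the other 5 libraries in 7 of the 10 genes (ATF4, ATF5, DDIT4, TRIB3, CHAC1, SESN2 and PPP1R15A) and above them in VLDLR. Of all genes tested, 28.3% had EV replicate 1 as the lowest library and 27.9% as the highest. In PPP1R15A it stood at 0.504 times the mean of the other 5 libraries, in CHAC1 at 0.514 times and in SESN2 at 0.60 times. On the log2 scale these deviations were -0.95, -0.78 and -0.69, within the lowest 0.911%, 1.95% and 2.75% of all genes tested. For ATF4 the ratio was 0.773 and for ATF5 0.758, whereas ASNS, with 15 reads there, stood at 1.26.

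The deviation of EV replicate 1 ran with base composition. Over 13347 genes, which share the same 6 libraries and are not independent replicates, it had a Spearman coefficient of -0.51 with GC content, against 0.05 to 0.29 in the other libraries. For these coefficients each deviation was taken from the mean of all 6 libraries. A negative trend in EV replicate 1 therefore pushes the other coefficients upward, and they are not an independent comparison. The members' transcripts had a median GC content of 58.5%, beside 48.1% for these 13347 genes. The 2 members of lowest GC content, VLDLR at 42.7% and ASNS at 47.0%, were those in which EV replicate 1 exceeded the mean of the others. Genes within 1 percentage point of the GC content of PPP1R15A had a median deviation of -0.17, and those near CHAC1 and SESN2 of -0.26 and -0.21. After each library had been corrected for GC content and exonic length, the deviation of EV replicate 1 was -0.74 in PPP1R15A, -0.46 in CHAC1, -0.47 in SESN2 and -0.18 in ATF4. It was then the lowest library in 5 of the 10 members and in 23.2% of the 13347 genes. In that corrected fit the SCML4 difference was 0.27 in PPP1R15A (adjusted p = 0.880 in limma-trend) and 0.03 in ATF4. The part of base composition in the members' values was not tested further.

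**Figure D3:**
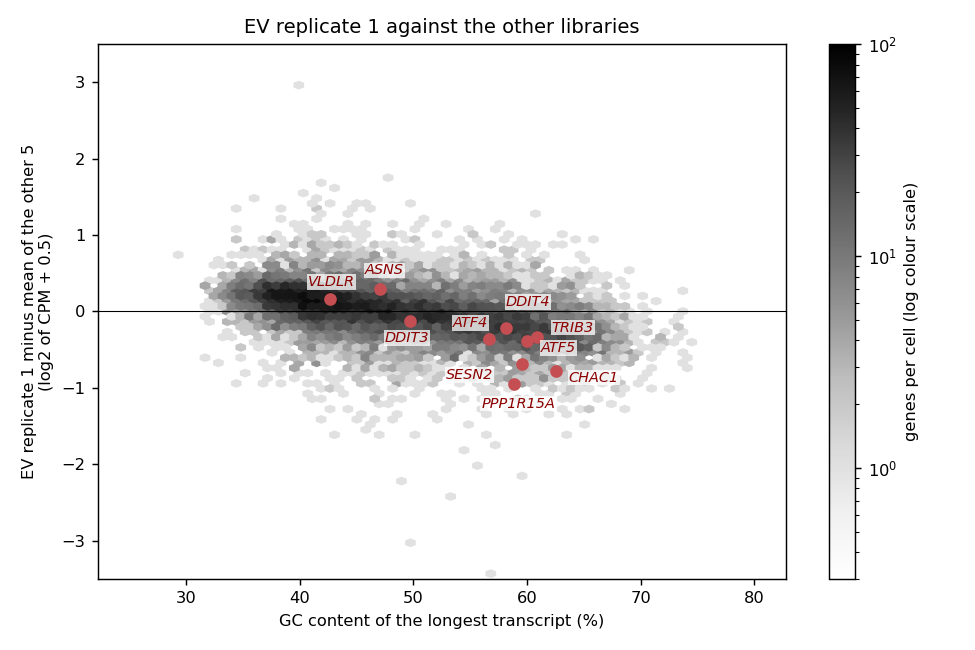
The x axis is the GC content of each gene's longest transcript and the y axis the log2 level of EV replicate 1 minus the mean of the other 5 libraries; grey cells count genes on a log colour scale and red points are the members. Members of high GC content lie below 0, with PPP1R15A at -0.95, CHAC1 at -0.78 and SESN2 at -0.69, and VLDLR and ASNS above it.

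Scaled to the exonic length of each gene in GENCODE 29, the members covered a wide range of levels. Mean level over the 6 libraries was 187 CPM per kilobase for ATF4, 42.1 for DDIT4, 14.9 for TRIB3, 7.21 for ATF5 and 5.87 for PPP1R15A. Below these came SESN2 at 4.31, DDIT3 at 3.79, VLDLR at 2.26 and CHAC1 at 1.35 CPM per kilobase, and ASNS was last at 0.290. These are descriptions, since no source used here gives the annotation behind the counting. The gene lengths behind the deposited FPKM were not used for this: for ATF4 they imply 282 bases against an exonic length of 2514, and for PPP1R15A 197 against 3093.

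Around the members, 9 lists of related genes with 119 distinct genes were examined in the same fit. Of the 108 that passed the filter, 0 were called by limma-trend, 7 had an unadjusted p under 0.05, where the share of all genes was 5.2%, and 52 had positive and 56 negative differences. Without EV replicate 1, 0 genes of any list were called. In that fit the median turned sign in 5 lists, those of amino acid synthesis, transporters, synthetases, other stress targets and hypoxia targets. Among the eIF2 kinases and the subunits and phosphatases that act on eIF2, 7 of 20 differences were positive and the median was -0.04 in log2 (8 of 20 and -0.02 without EV replicate 1). EIF2S2, the beta subunit of eIF2, averaged 125 ± 1.30 CPM in the EV libraries and 107 ± 7.33 CPM in those of SCML4 (SD, n = 3 each). That difference of -0.22 had an unadjusted p of 0.0146 (limma-trend, adjusted p = 0.867). The groups did not overlap in 3 of the 20 genes, EIF2S2 among them, beside 11.6% of all genes. In the other lists that count ran from 0 of 8 (amino acid transporters) and 0 of 13 (synthetases) to 3 of 12 (p53 targets). PPP1R15B, the constitutive counterpart of PPP1R15A, had a difference of -0.14 and the catalytic phosphatase subunit PPP1CA one of 0.14. Of the partners of ATF4 and related bZIP factors, taken as 1 list, 4 of 9 were positive with a median of -0.06 (3 of 9 and -0.05 without EV replicate 1). ATF3, a stress-induced repressor and activator that ATF4 induces, had a difference of 0.30, JDP2 one of 0.39 and CREB1 one of -0.12. These were 0.18, 0.24 and -0.07 without EV replicate 1.

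The targets of ATF4 in amino acid supply had differences of both signs in each list. In amino acid synthesis 6 of 11 differences were positive, with a median of 0.01, but without EV replicate 1 this turned to 4 of 11 and -0.05. PHGDH, the first enzyme of serine synthesis, averaged 128 ± 5.70 CPM in the EV libraries and 148 ± 8.95 CPM in those of SCML4, a difference of 0.21 (limma-trend, adjusted p = 0.867). GOT1, the cytosolic aspartate aminotransferase, had 0.22 and SHMT2, a mitochondrial enzyme of the folate cycle, 0.12, and GOT1 had 0.14 without that library. Amino acid transporters gave 5 of 8 positive (median 0.03), with SLC7A11, the cystine transporter, at -0.27, SLC38A2 at -0.15 and SLC1A4 at 0.15. Without EV replicate 1 the count turned to 2 of 8 and the median to -0.09, and SLC38A2 stood at -0.06. Aminoacyl-tRNA synthetases, which load tRNAs with amino acids, gave 7 of 13 positive (median 0.02), and their differences all lay between -0.10 and 0.11. EV replicate 1 was the lowest library in 8 of the 13, beside 28.3% of all genes. In the other lists that count ran from 2 of 12 (hypoxia targets) to 6 of 12 (p53 targets). Without EV replicate 1, 3 of 13 synthetases were positive with a median of -0.04. LARS1 and NARS1 had differences of -0.10 and WARS1 one of 0.11, and LARS1 had -0.03 without EV replicate 1.

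Lists of stress genes outside amino acid supply likewise held no called gene. Other stress targets of ATF4 gave 5 of 10 positive (median -0.0022), and without EV replicate 1 again 5 of 10 (median 0.04). BBC3, which encodes the death-promoting BCL2 family protein PUMA and is also a p53 target, averaged 5.73 ± 1.70 CPM in the EV libraries and 8.94 ± 1.15 CPM in those of SCML4. Its difference of 0.63 (SE 0.22, adjusted p = 0.867 in limma-trend) was 0.41 without EV replicate 1. GADD45A and the translation repressor EIF4EBP1 had differences of 0.40 and 0.34, or 0.31 and 0.15 without it. Chaperones and targets of ATF6 or XBP1, the other branches of the unfolded protein response, gave 8 of 16 positive (median -0.0016), or 7 of 16 (median -0.02) without that library. XBP1 averaged 93.8 ± 6.61 CPM in the EV libraries and 114 ± 9.55 CPM in those of SCML4, a difference of 0.28 (limma-trend, adjusted p = 0.867), and CALR and EDEM1 had differences of 0.22 and -0.17. Hypoxia targets gave 5 of 12 positive (median -0.03), with VEGFA at -0.35, ANKRD37 at 0.36 and ADM at 0.60 from 8 to 36 reads per library. That count turned to 7 of 12 and the median to 0.08 without EV replicate 1, where VEGFA stood at -0.23. Of the p53 targets 7 of 12 were positive with and without it (median 0.05 in both fits), and ZMAT3 had a difference of -0.24, or -0.15 without it.

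**Figure D4:**
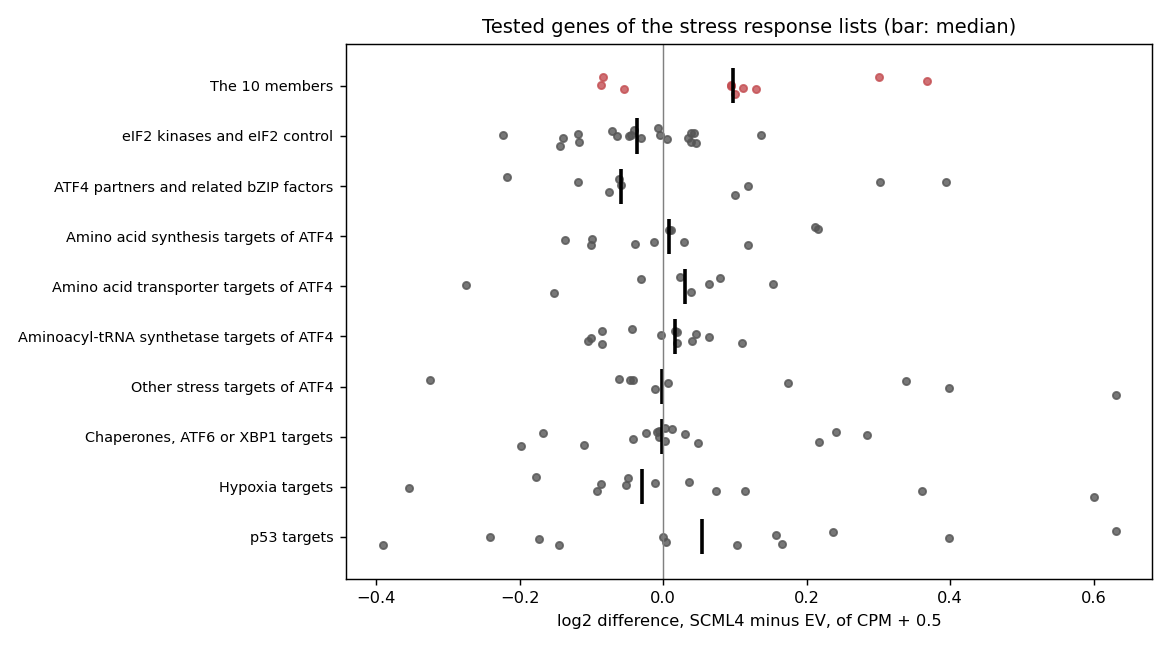
Each point is 1 tested gene, placed by its log2 difference, SCML4 minus EV, of CPM + 0.5; black bars are the medians of the lists over all 6 libraries. The 10 members (red) have a median of 0.10, and the 9 lists have medians between -0.06 and 0.05.

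The genes whose levels followed those of ATF4 most closely over the 6 libraries were FASN, ZNF771 and MRPS26. Likeness was the root mean square difference of centred log2(CPM + 0.5) values, which was 0.019, 0.0305 and 0.0306 in log2, among 11406 other genes averaging 50 reads or more. PPP1R15A, the member with the largest spread among those of that depth, lay closest to NDUFS6, TPMTP1 and MRPL23, at 0.0664, 0.0704 and 0.0707. In all 6 of these genes, as in both members, EV replicate 1 was the lowest library. That follows from the choice of genes by likeness over the same 6 libraries, and shared control was not tested.

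The libraries held 8953671 to 10336597 reads. For SCML4 itself the EV libraries held 7, 2 and 1 reads and the overexpressing libraries 570, 657 and 506. All 13 listed markers of Jurkat and T cells were present in every library. Of their differences 10 were positive, or 9 without EV replicate 1, and 0 were called in limma-trend. The groups did not overlap in 5 of the 13, beside 11.6% of all genes. Of the marker lists for B, myeloid, erythroid, epithelial and fibroblast cells, CD79A had 207 to 338 reads per library, COL1A1 13 to 24 and KRT8 5 to 15, and every other marker had at most 5. Defining markers PAX5, LYZ, HBB, EPCAM and DCN were at 0 in all 6 libraries, where up to 3 reads, or 0.335 CPM, cannot be told from 0.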

How the data were processed

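The deposited FPKM table (reads scaled by gene length and library size) has 1 column per library, per the file headers; FastQC, STAR, SAMtools and hg19 are named without versions, per the submitters' processing notes. Counting tool, annotation and lengths: not given in the sources used here. Libraries were assigned to groups by their titles.

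Within a gene, deposited FPKM rise in steps of 1 read, and reads and library totals were worked out from these steps. All 23897 rows above 0 came out whole within 0.002 of a read, widened for rounding; a common divisor was undone in 718 genes, where the implied length was otherwise not whole. Levels are CPM of these reads, since the lengths implied by the steps differ from the genes' own and would enter the pseudocount, filter and intensity trend. The ratio of a gene between libraries does not depend on them.

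Differences were fitted with limma 3.58.1 in R 4.3.3 (limma-trend, log2(CPM + 0.5), mean of at least 10 reads, group as the only term, Benjamini-Hochberg adjustment over all genes tested, threshold 0.05), and no set test was used. Permutation tests, intervals and tables were made in Python 3.11.15 with SciPy 1.17.1. Counting intervals and floors cover counting error only. Lengths and GC content came from GENCODE 29 on GRCh38 and promoters from RefSeq. The scripts were tested on simulated data.

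The members and lists were chosen with earlier results of these data known. Named were all members, SCML4, up to 3 genes of smallest unadjusted p per list, and the 3 genes closest in pattern to ATF4 and to the member of largest spread. CD79A, COL1A1, KRT8, ATF4P3 and ATF4P4, and the markers at 0, were named after their values had been seen. The alternatives tried were other pseudocounts, filters, scalings, limma-voom, the deposited FPKM on log2(FPKM + 1), library weights, a replicate block, correction for GC content and length (lowess, span 0.3) and leaving out each library. A limma-voom fit with library weights was added after seeing the data.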

Additional observations from a re-analysis of the deposited data

How the results depend on the processing

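Of the 10 members, 0 were called in the reported limma-trend fit or in any of the 18 alternatives, in which their adjusted p was between 0.729 and 1.00. At an unadjusted p under 0.05 there was 1 member, PPP1R15A without EV replicate 2, and 0 in each other fit. Without EV replicate 2, 882 of all 14160 genes tested had such a p in limma-trend. The number of all genes called was 1 as reported, 2 with median-of-ratios size factors, 0 on log2(FPKM + 1), 20 with library weights, 3 after correction for GC content and length and 14 in limma-voom with library weights; leaving out each library gave 1 to 14, the 14 without EV replicate 1. The groups share replicate numbers, but same-numbered libraries did not deviate together (correlations of -0.08, -0.19 and -0.05 over 11407 genes, against -0.13 to 0.22 for pairs of unlike numbers), and no library correlated best with its own number, so the numbers were not taken to pair them; the fit with a replicate block called 2 genes and 0 members.

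Of 177 member values under the alternatives, 164 kept their direction and 13 did not. The reported interval includes 0 in all 10 members. With library weights the difference of ATF4 was 0.00 (-0.0011) and that of SESN2 -0.15, and in limma-voom with library weights that of SESN2 was -0.13. After correction for GC content and length those of DDIT4 and TRIB3 were 0.00 (-0.0030 and -0.0022). Leaving out each library in turn moved ATF4 between -0.014 and 0.19, DDIT3 between -0.12 and 0.030, TRIB3 between -0.016 and 0.17, ASNS between -0.41 and 0.18 and SESN2 between -0.17 and 0.25. ATF5, CHAC1, PPP1R15A and VLDLR kept their sign throughout but not their size: leaving out each library moved ATF5 between 0.00045 and 0.23, CHAC1 between 0.05 and 0.44, PPP1R15A between 0.06 and 0.56 and VLDLR between -0.12 and -0.04. The smallest size in each came without EV replicate 1, and the 0.56 of PPP1R15A without EV replicate 2. The cause of these changes was not tested. SCML4 had an adjusted p of 0.0619 on log2(FPKM + 1), where its difference was 1.88, and was called in every other fit. Depth limits ASNS, CHAC1 and DDIT3, with means under 50 reads.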

Other observations

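ATF4P3, a processed pseudogene of ATF4, was counted at 127, 118 and 176 reads in the EV libraries and at 258, 201 and 116 in those of SCML4, a difference of 0.38 in log2 (limma-trend, adjusted p = 0.867). SCML4 replicate 1 was highest in both ATF4P3 and ATF4, and the groups overlapped in the pseudogene too. Reads of near-identical copies can be split between them by the counting, which is not described in the sources used here, so the level of the pseudogene is uncertain. VLDLR-AS1, listed beside VLDLR as its antisense gene, had 4 to 12 reads per library, under the filter on reads. Whether strand was used in counting is not given in the sources used here.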
